A study of Mus musculus with 4 samples.

Results

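The enzymes that make and break down arginine, ornithine and citrulline were read on 4 Affymetrix arrays of mouse colonic epithelial cells. The set holds 9 genes, Cps1, Otc, Nags, Oat, Ass1, Asl, Arg1, Arg2 and Aldh18a1, out of 18193 genes represented on the arrays. Every probe set that the platform annotation gives to one of them was taken, which came to 16 probe sets with a single gene symbol and 1 probe set annotated to both Ass1 and the pseudogene Gm5424. The genes were listed with earlier results of these data known, so their differences are given as a description and support no test.

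The 4 arrays compared colonic epithelium lacking both Bmi1 and Mel18 (Bmi1ΔIEC Mel18ΔIEC, called DKO), lacking Bmi1 alone (Bmi1ΔIEC) or lacking Mel18 alone (Mel18ΔIEC) with wild-type (WT) epithelium. The proteins Bmi1 and Mel18 are paralogs that belong to PRC1, the Polycomb complex that silences developmental genes in chromatin. All mice were C57BL/6, sex-matched and 6 to 8 weeks old. All of them, WT included, had received azoxymethane at 10 mg/kg, a carcinogen, and 5 days later 3.5% dextran sulfate sodium for 5 days, a chemical that injures the colon, in a model of colitis-associated cancer. Cells were released from the colon with EDTA on day 12, and no sorting step is given. The Cre driver behind the ΔIEC alleles and the number of mice per array are not given in the sources used here. Each genotype has 1 array, so no value has a replicate error, no p-value is given, and neighbours in an order of levels cannot be tested against a spread.

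Values are intensities of probe sets after RMA, the authors' background correction and summary, on a linear scale, and differences are on the log2 scale. For a gene with several probe sets, the one with the highest mean stands for it. A gene counts as higher or lower when it differs at least 2-fold and the higher value reaches a floor of 33.4 intensity units, the median of the whole table. The Bmi1 probe set with the highest mean read 432 on the DKO array, 334 on the Bmi1ΔIEC array and 160 on the Mel18ΔIEC array, against 116 on the WT array, which goes against a loss of that transcript on the arrays labelled for it. Pcgf2, the gene of Mel18, read between 30.2 and 39.8 on all 4 arrays. The deleted exons are not given, so these readings check no label, and each array is called by its label. All 8 epithelial markers, such as the adhesion protein gene Epcam and the keratin gene Krt8, lay above the floor on every array. The albumin gene Alb and the fibrinogen gene Fgb, which define hepatocytes, lay under it on every array. Of 9 hepatocyte markers measured, 4 reached the floor on at least 1 array, namely Ttr, Tat, Apoh and Serpina1b.

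The urea cycle disposes of ammonia in liver. In mitochondria Cps1 joins ammonia and bicarbonate into carbamoyl phosphate, for which it needs the activator made by Nags, and Otc adds that product to ornithine to give citrulline. In the cytosol Ass1 and Asl turn citrulline into arginine, and arginases cleave arginine to urea and ornithine. Intestinal epithelium holds the mitochondrial steps of this route: Aldh18a1 and Oat make ornithine from glutamate through pyrroline-5-carboxylate, and Cps1 and Otc carry it to citrulline, which the gut exports.

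Promoter sequences from RefSeq (GRCm38.p6) were at hand for 5 of the 9 genes. Those of Otc and Oat are shown because both genes read highest on the DKO array and lowest on the WT array. The Otc stretch, chrX:10252055-10252229 on the plus strand, runs over 175 bases that end before the annotated gene. It holds bases 250 to 76 before the start point of the promoter sequence. The bases nearer to that point lie inside the annotated gene and were left out. The Oat stretch, chr7:132576399-132576648 on the minus strand, holds the 250 bases before the gene. Capitals mark CCAAT boxes on either strand.
Otc: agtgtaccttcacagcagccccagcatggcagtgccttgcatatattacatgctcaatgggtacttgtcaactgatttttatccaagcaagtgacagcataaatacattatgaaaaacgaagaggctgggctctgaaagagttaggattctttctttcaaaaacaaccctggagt
Oat: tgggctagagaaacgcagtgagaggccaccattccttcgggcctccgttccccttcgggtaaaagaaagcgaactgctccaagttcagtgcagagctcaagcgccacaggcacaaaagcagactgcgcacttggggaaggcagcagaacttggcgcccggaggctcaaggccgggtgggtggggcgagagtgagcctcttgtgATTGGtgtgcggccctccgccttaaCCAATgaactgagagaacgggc
The Oat stretch held 2 matches to CCAAT, 1 on each strand, and the Otc stretch held 0. A match occurred in 33.8% of 32851 promoters over the 250 bases and in 24.1% over the window used for Otc. All motifs were chosen after the expression values had been seen, and the CCAAT box after these sequences had been read. Of the 6 other motifs searched on both strands, neither stretch held any. For Otc the bases nearest the start point were not searched, so a TATA box or other site there could not be found. The TATA box, TATAAA, occurred in 12.4% of promoters over the 250 bases and in 8.22% over the Otc window. The letters TTGCNNAA, bound by C/EBP factors, occurred in 9.56% and 7.22% of promoters in the same windows. For the HNF4 letters AAAGTCCA these shares were 1.01% and 0.682%. For an HNF1 site read as its left part, GTTAAT, they were 6.43% and 4.65%. The GATA factor site AGATAA gave 9.99% and 7.54%. The CDX factor site CCATAAA gave 2.43% and 1.81%. The 2 CCAAT matches did not overlap.

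Cps1 and Oat were higher than WT on all 3 knockout arrays by the 2-fold rule, Otc and Arg2 on the DKO and Bmi1ΔIEC arrays, and Nags on the DKO and Mel18ΔIEC arrays. Cps1 (chromosome 1, 67122426 to 67231267, GRCm38.p6), the first enzyme of the cycle, read 292 on the DKO array, 224 on the Bmi1ΔIEC array and 162 on the Mel18ΔIEC array, against 79.6 on the WT array. All 4 values lay above the floor, and the WT value was the lowest. The differences from WT were 1.88 for DKO, 1.49 for Bmi1ΔIEC and 1.03 for Mel18ΔIEC, of which the last lies just past the 2-fold rule. With each array centred on the median of its expressed genes, the Mel18ΔIEC call ended, at 0.87. Expressed genes are those at or above the floor on any array. Under quantile normalization that call ended too, at 0.999.

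Otc (chromosome X, 10252230 to 10321024), which makes citrulline, had the largest difference of any member between the DKO and WT arrays. Its probe set with the highest mean read 475 on the DKO array, 271 on the Bmi1ΔIEC array and 139 on the Mel18ΔIEC array, against 82.6 on the WT array. The differences from WT were 2.53, 1.72 and 0.75 in that order, so the Mel18ΔIEC array did not pass the 2-fold rule. A second Otc probe set followed the same order, at 88.2 on the DKO array, 62.9 on the Bmi1ΔIEC array and 36.0 on the Mel18ΔIEC array, against 22.4 on the WT array. The third Otc probe set lay between 6.01 and 6.86 on all 4 arrays, under the floor, and carried no such difference. The other Otc probe sets are annotated to Otc alone and are of a type whose probes match several transcripts of the same gene. With this and other types that match several transcripts left out, Otc was read by the third probe set alone. The Otc calls then ended, at 0.16 for DKO and 0.11 for Bmi1ΔIEC against WT, as that probe set lay under the floor. As a mean over its 3 probe sets Otc differed from WT by 1.55 for DKO, 1.10 for Bmi1ΔIEC and 0.47 for Mel18ΔIEC. Otc is X-linked, and Xist, the RNA that coats an inactive X chromosome, read 611 on the DKO array, 45.5 on the Bmi1ΔIEC array and 54.2 on the Mel18ΔIEC array, against 122 on the WT array. The Y-linked Eif2s3y, a translation factor gene, read 229 on the DKO array, 282 on the Bmi1ΔIEC array and 198 on the Mel18ΔIEC array, against 246 on the WT array, all well above the floor. The part of the animals' sex in the Otc values was not tested.

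Oat (chromosome 7, 132557475 to 132576398), the enzyme between ornithine and pyrroline-5-carboxylate, read 1699 on the DKO array, 936 on the Bmi1ΔIEC array and 901 on the Mel18ΔIEC array, against 447 on the WT array. The single-knockout arrays lay close to each other and between the other two arrays. The differences from WT were 1.93, 1.07 and 1.01, of which the last 2 lie just past the 2-fold rule. Both of these calls ended with each array centred on the median of its expressed genes (those at or above the floor on any array), at 0.83 for Bmi1ΔIEC and 0.85 for Mel18ΔIEC, and under quantile normalization, at 0.95 for each. Arg2 (chromosome 12, 79130788 to 79156301), the mitochondrial arginase found outside the liver, read 95.6 on the DKO array, 75.3 on the Bmi1ΔIEC array and 52.6 on the Mel18ΔIEC array, against 28.1 on the WT array. The WT value lay under the floor, so the measured 3.40-fold of DKO over WT may depend on background signal, and against the floor itself the DKO value was 2.87-fold. The Mel18ΔIEC difference from WT was 0.90 and lay just short of 2-fold. The second Arg2 probe set read 39.8 on the DKO array, 32.4 on the Bmi1ΔIEC array and 32.4 on the Mel18ΔIEC array, against 17.6 on the WT array, and reached the floor on the DKO array alone.

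Nags (chromosome 11, 102145513 to 102149528), which makes the activator N-acetylglutamate of Cps1, had another order. It read 89.7 on the DKO array, 79.8 on the Mel18ΔIEC array and 35.9 on the Bmi1ΔIEC array, against 36.0 on the WT array. Both arrays labelled for Mel18 loss were thus higher, by 1.32 and 1.15, and the Bmi1ΔIEC array differed from WT by -0.0043. The WT and Bmi1ΔIEC values lay just above the floor.

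Aldh18a1 (chromosome 19, 40550257 to 40588463), which makes pyrroline-5-carboxylate from glutamate and so feeds Oat, differed little. Its probe set with the highest mean read 448 on the DKO array, 414 on the Bmi1ΔIEC array and 384 on the Mel18ΔIEC array, against 403 on the WT array. None of its 5 probe sets passed the 2-fold rule against WT, and the largest difference was 0.61, on the Bmi1ΔIEC array in 1 of them.

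**Figure D1:**
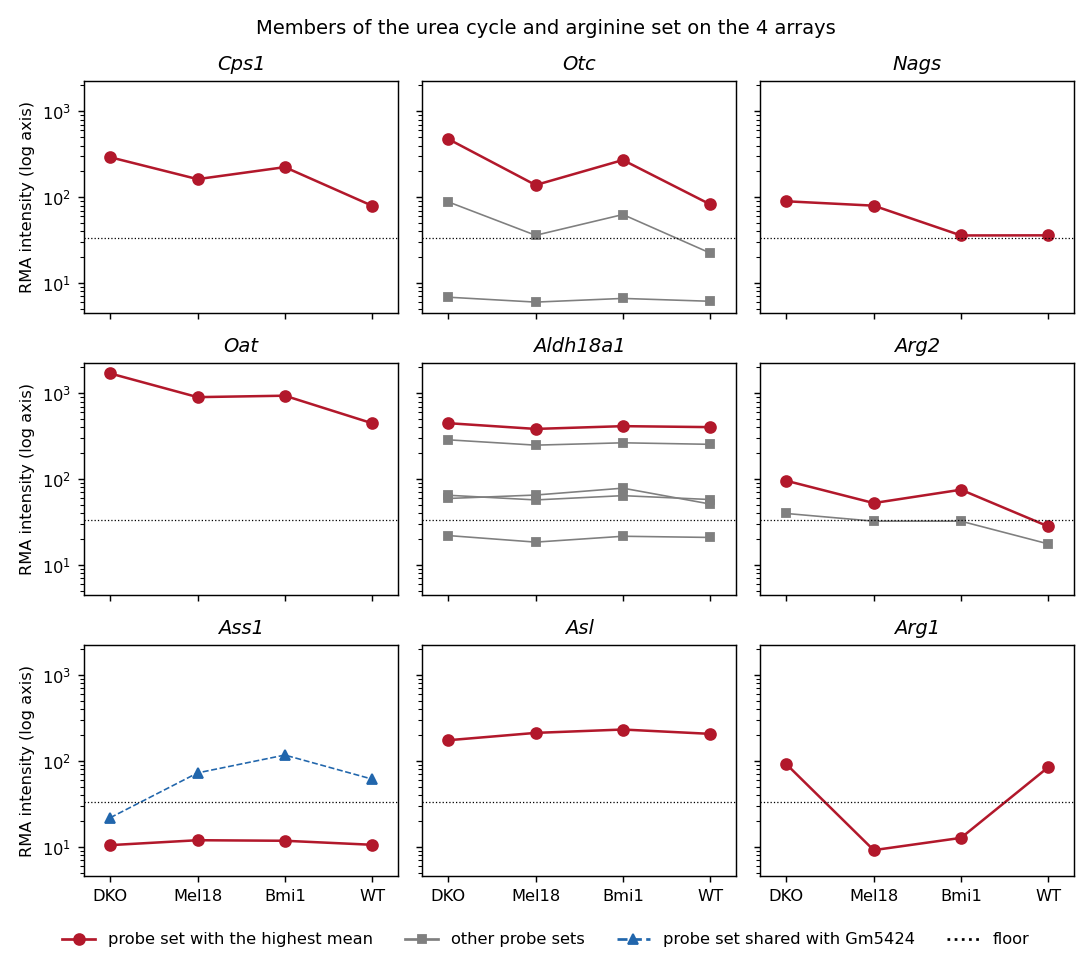
RMA intensity (log axis) of every probe set of the 9 genes on the DKO, Mel18ΔIEC (Mel18), Bmi1ΔIEC (Bmi1) and WT arrays, 1 array each. Red circles are the probe set with the highest mean, grey squares the others, blue triangles the probe set shared with Gm5424, and the dotted line the floor of 33.4. By the probe set with the highest mean, Cps1, Otc, Oat and Arg2 are lowest on the WT array. Arg1 is under the floor on both single-knockout arrays.

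Of the cytosolic steps from citrulline to arginine, Asl alone could be read. Asl (chromosome 5, 130011258 to 130024381), which releases arginine from argininosuccinate, read 175 on the DKO array, 233 on the Bmi1ΔIEC array and 213 on the Mel18ΔIEC array, against 207 on the WT array. All 4 values lay within 0.41 of each other on the log2 scale, with the DKO array lowest. Ass1 (chromosome 2, 31470270 to 31520670), which joins citrulline and aspartate, has a single probe set of its own, and that lay between 10.5 and 12.0 on all 4 arrays, under the floor, so nothing can be read from it. The probe set annotated to both Ass1 and its pseudogene Gm5424 read 21.9 on the DKO array, 117 on the Bmi1ΔIEC array and 72.7 on the Mel18ΔIEC array, against 61.6 on the WT array. It was lower on the DKO array than on each other array, by -1.49 against WT, -2.42 against Bmi1ΔIEC and -1.73 against Mel18ΔIEC. The DKO value lay under the floor, so these differences may depend on background signal. Against the floor itself WT was 1.85-fold, Bmi1ΔIEC 3.52-fold and Mel18ΔIEC 2.18-fold. Which of the Ass1 and Gm5424 transcripts gave this signal cannot be told apart, and it is not counted as Ass1.

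Arg1 (chromosome 10, 24915207 to 24927470), the cytosolic arginase of liver and of activated myeloid cells, separated from all of the above. It read 91.7 on the DKO array, 12.7 on the Bmi1ΔIEC array and 9.17 on the Mel18ΔIEC array, against 84.7 on the WT array. The DKO and WT arrays differed by 0.11, and both single-knockout arrays lay under the floor. The measured differences from WT were -2.73 for Bmi1ΔIEC and -3.21 for Mel18ΔIEC. Since background signal may set the single-knockout values, the difference can also be taken against the floor, where WT was 2.54-fold and DKO 2.75-fold above it. The cells came from an unsorted preparation, in which fewer cells of a type and less RNA per cell cannot be told apart.

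By the 2-fold rule, 8 of the 9 genes could be compared, Ass1 being under the floor. On the DKO array 5 of these 8 were higher than on the WT array (Cps1, Otc, Nags, Oat and Arg2) and 0 were lower, where 2.13% of 11853 genes were higher and 2.19% lower. On the Bmi1ΔIEC array 4 were higher (Cps1, Otc, Oat and Arg2) and 1 lower (Arg1), where 5.76% of 11934 genes were higher and 2.86% lower. On the Mel18ΔIEC array 3 were higher (Cps1, Nags and Oat) and 1 lower (Arg1), where 3.15% of 11862 genes were higher and 2.5% lower. With arrays centred on their expressed genes, the Bmi1ΔIEC count of higher members was 3, without Oat, and the Mel18ΔIEC count was 0, with Cps1 at 0.87, Nags at 0.99 and Oat at 0.85. Of all genes, 347 of 12003 were then higher on the Bmi1ΔIEC array and 234 of 11979 on the Mel18ΔIEC array. These comparisons share the WT array, and the genes were listed with earlier results known, so nothing is read from the counts beyond their size.

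The median difference of the 8 genes was 1.54 for DKO, 0.62 for Bmi1ΔIEC and 0.83 for Mel18ΔIEC against WT, while the median of all genes compared was -0.01, 0.13 and 0.07. Grouped by compartment, after their values had been seen, 5 of 6 mitochondrial members were higher on the DKO array than WT, the exception being Aldh18a1. Of the 2 cytosolic members compared, Asl and Arg1, 0 were, and 2.13% of all genes were. On the Bmi1ΔIEC array 4 of 6 mitochondrial members were higher than WT, and on the Mel18ΔIEC array 3 of 6. Against each single knockout, 1 of 6 mitochondrial and 1 of 2 cytosolic members were higher on the DKO array. The grouping repeats the calls above and is no separate result. At the level of probe sets, 7 of 13 compared were higher on the DKO array (2.07% of all), 5 of 12 on the Bmi1ΔIEC array (5.61%) and 3 of 12 on the Mel18ΔIEC array (3.09%). The DKO count took in more than 1 probe set of Otc and of Arg2, and the Bmi1ΔIEC count of Otc, so they partly repeat the gene calls. Both Arg2 probe sets and the second Otc probe set lay under the floor on the WT array. The Arg1 probe set was the single one lower on each of the Bmi1ΔIEC array (3.53% of all) and the Mel18ΔIEC array (2.23%), and 0 were lower on the DKO array (1.99%).

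**Figure D2:**
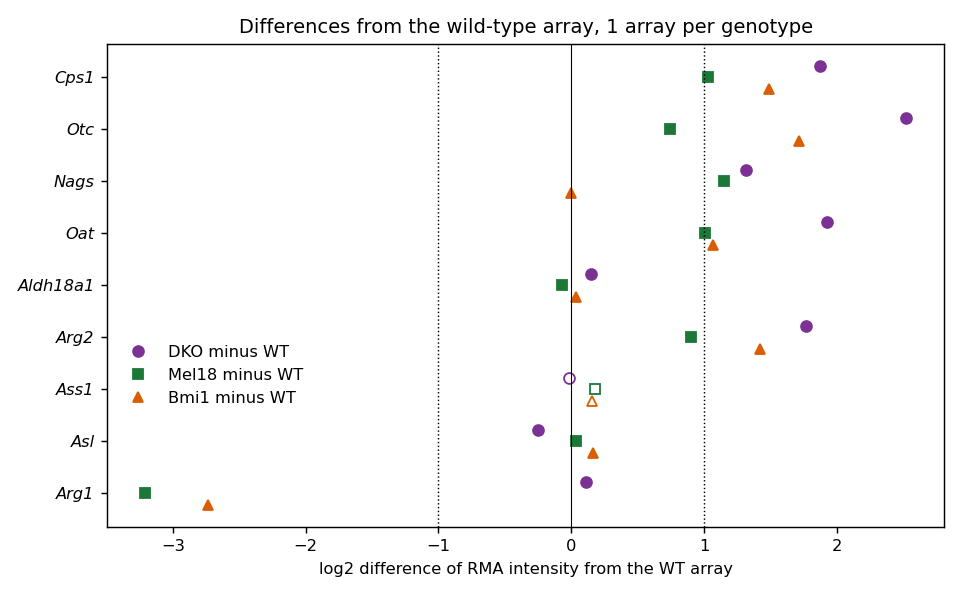
Log2 difference from the WT array for each of the 9 genes, with DKO as circles, Mel18ΔIEC as squares and Bmi1ΔIEC as triangles. Open symbols lie under the floor and dotted lines mark 2-fold. Cps1, Otc, Oat and Arg2 lie to the right of 0 on all 3 knockout arrays, and Arg1 lies at -2.73 and -3.21 on the single-knockout arrays and at 0.11 on the DKO array.

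**Figure D3:**
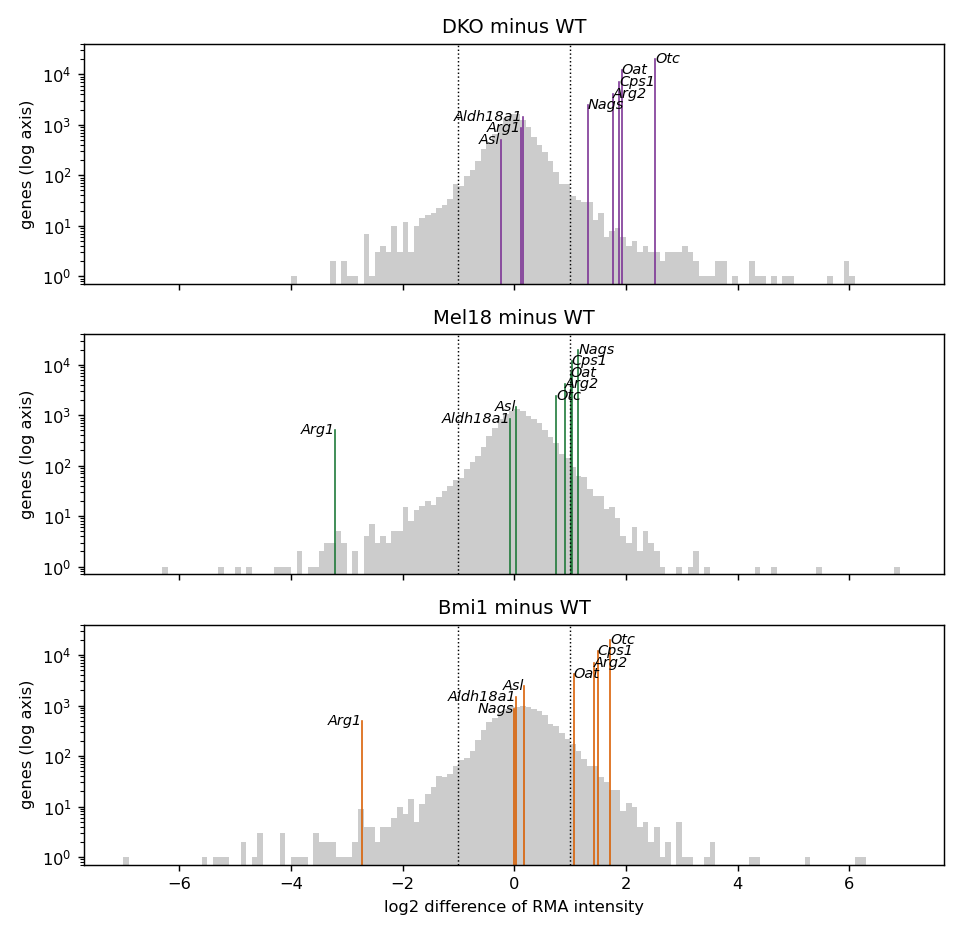
Histogram of the log2 differences from WT of all genes compared (grey, log axis of gene counts), with coloured lines at the 8 members compared. Dotted lines mark 2-fold. Otc is the member farthest right on the DKO array, at 2.53, and on the Bmi1ΔIEC array, at 1.72, while Arg1 is the member farthest left on the single-knockout arrays.

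The position of the members among all genes shows the size of these differences. Between DKO and WT, Otc was exceeded by 0.346% of genes, Oat by 0.548%, Cps1 by 0.565%, Arg2 by 0.65% and Nags by 1.22%. Between Bmi1ΔIEC and WT, Otc was exceeded by 0.855% of genes, Cps1 by 1.48%, Arg2 by 1.89% and Oat by 4.74%. Between Mel18ΔIEC and WT, Nags was exceeded by 2.04% of genes, Cps1 by 2.87%, Oat by 3.06%, Arg2 by 4.31% and Otc by 7.01%. The WT value of Arg2 lay under the floor, so its position has that limit, and Arg1 is given no position because its single-knockout values lay under the floor.

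Set against each single knockout, the DKO array was higher in a few members. Against Bmi1ΔIEC, Arg1 at 2.85 and Nags at 1.32 passed the 2-fold rule as higher and 0 members as lower, where 4.3% of 11966 genes were higher and 7.96% lower. Otc at 0.81 and Oat at 0.86 did not pass, nor did Cps1 at 0.38 and Arg2 at 0.35. Against Mel18ΔIEC, Arg1 at 3.32 and Otc at 1.78 were higher and 0 members lower, where 3.84% of 11879 genes were higher and 4.53% lower. Oat at 0.92, Arg2 at 0.86 and Cps1 at 0.85 lay just short of 2-fold, and Nags read 0.17. Under that same centring, 4 members were higher against Bmi1ΔIEC (Otc, Nags, Oat and Arg1) and 5 against Mel18ΔIEC (Cps1, Otc, Oat, Arg1 and Arg2). Of all genes, 825 of 12024 were then higher against Bmi1ΔIEC and 614 of 11986 against Mel18ΔIEC. As deposited, these were 515 of 11966 and 456 of 11879. The centring put the median of all genes compared at 0.11 against Bmi1ΔIEC, where it was -0.14 as deposited, and at 0.08 against Mel18ΔIEC, where it was -0.09.

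Cps1, Otc, Oat and Arg2 shared the order DKO, Bmi1ΔIEC, Mel18ΔIEC, WT from high to low. It was the order of 4 of the 8 members that reached the floor and of 2.67% of the 12154 genes that did. For Oat the single-knockout arrays differed by 0.06. With arrays centred on their expressed genes these 2 arrays changed places, at 0.83 for Bmi1ΔIEC and 0.85 for Mel18ΔIEC against WT. The second Arg2 probe set read 32.4 on each single-knockout array, under the floor, and gave no order between them. The likeness of 2 patterns was taken as the Euclidean distance between log2 profiles over the 4 arrays, each centred on its own mean, among 11640 genes. It is a description over 4 points that share their arrays. Arg2 was the gene nearest to Cps1, and Cps1 the gene nearest to Arg2, at a distance of 0.10, which rests in part on the WT value of Arg2 under the floor. After Arg2, Cps1 lay nearest to Anxa13 (0.22), an annexin, the transcription factor gene Mycn (0.34), Rab17 (0.36), a small GTPase of polarised epithelia, and Agmo (0.37), an ether lipid monooxygenase. The nearest to Arg2 after Cps1 were Anxa13, Mycn, Agmo and the interferon-induced Xaf1, between 0.32 and 0.35.

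Otc lay nearest to Arl14 (0.43), Tcf23 (0.45), Bmi1 (0.45), Anxa13 (0.67) and Cps1 (0.68). Bmi1 itself was thus among the 5 genes most like Otc, with the readings given above. Oat lay nearest to Sox9 (0.22), a transcription factor of the crypt base, the noncoding RNA Plut (0.29), the bicarbonate transporter gene Slc4a4 (0.29), the kinase gene Pim3 (0.34) and Ndnf (0.37), and Cps1 followed as the sixth at 0.38. Nags lay nearest to Clca1 (0.33), a secreted goblet cell protein, Rps4l (0.34), Cilp (0.34), Camk2b (0.38) and Gal3st2 (0.39), a sulfotransferase.

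For Arg1 the distances rest on single-knockout values under the floor, so no distance or order is given. The 5 genes that the measure put nearest were Sprr2d, a cornified envelope protein of squamous epithelium, Ido1, the interferon-induced enzyme that degrades tryptophan, lactoferrin Ltf, the lipid transporter gene Mfsd2a and Krt6b, a keratin of wounded skin. Sprr2d read 317 on the DKO array, 33.9 on the Bmi1ΔIEC array and 28.6 on the Mel18ΔIEC array, against 241 on the WT array. Ido1 read 1658 on the DKO array, 318 on the Bmi1ΔIEC array and 220 on the Mel18ΔIEC array, against 2123 on the WT array. Both were higher on the arrays where Arg1 was above the floor and lower where it was under it. They were picked by that likeness, so it is no separate result.

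Markers of myeloid cells moved with Arg1 in part. Of 13 neutrophil markers 9 reached the floor on at least 1 array, and their summed level over all 13 was 3221 units on the DKO array, 426 on the Bmi1ΔIEC array and 556 on the Mel18ΔIEC array, against 3580 on the WT array. Most of this sum on the DKO and WT arrays came from S100a8, S100a9, Il1b and Ltf. S100a8, a calprotectin subunit, read 851 on the DKO array, 33.1 on the Bmi1ΔIEC array and 93.4 on the Mel18ΔIEC array, against 935 on the WT array. Il1b read 928 on the DKO array, 96.2 on the Bmi1ΔIEC array and 129 on the Mel18ΔIEC array, against 1161 on the WT array. Against WT, 4 of 8 neutrophil markers compared were lower on each single-knockout array (S100a8, S100a9, Ltf and Il1b), with list medians of -1.81 on the Bmi1ΔIEC array and -2.02 on the Mel18ΔIEC array. None of 9 passed the 2-fold rule on the DKO array. The neutrophil granule genes Mpo, Mmp8 and Camp lay under the floor on every array.

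Of 15 macrophage and dendritic cell markers 14 reached the floor, and their summed level over all 15 was 4997 units on the DKO array, 3049 on the Bmi1ΔIEC array and 2862 on the Mel18ΔIEC array, against 4723 on the WT array. Cd14, a receptor for bacterial lipopolysaccharide, made up 722 units of this on the DKO array, 1549 on the Bmi1ΔIEC array and 756 on the Mel18ΔIEC array, against 1199 on the WT array, and was lower on the DKO array than on the Bmi1ΔIEC array at -1.10. The list's median difference from WT was 0.21 for DKO, -1.09 for Bmi1ΔIEC and -0.65 for Mel18ΔIEC. On the Bmi1ΔIEC array 8 of 14 were lower than WT, such as Csf1r, the receptor for macrophage colony-stimulating factor, at -1.33, and on the Mel18ΔIEC array 3 were, namely Tyrobp, Fcer1g and Fcgr3. The integrin gene Itgam, a defining myeloid marker, lay under the floor on every array. Of 7 markers of alternatively activated macrophages, in which Arg1 is best known, 2 reached the floor, the mannose receptor gene Mrc1 and Retnla. Their summed level over all 7 was 314 units on the DKO array, 167 on the Bmi1ΔIEC array and 223 on the Mel18ΔIEC array, against 221 on the WT array. The part of myeloid cells in the Arg1 values was not tested, and the data do not place Arg1 in a cell type.

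Markers of small intestine were higher on the DKO array, where Cps1 and Otc read highest. Of 17 such markers 15 were measured and 14 reached the floor, and their summed level over all 15 was 10624 units on the DKO array, 3915 on the Bmi1ΔIEC array and 4572 on the Mel18ΔIEC array, against 4223 on the WT array. On the DKO array 10 of 14 were higher than WT and 0 lower, such as the lipoprotein assembly gene Mttp at 4.33 and intestinal alkaline phosphatase Alpi at 2.24. On the Bmi1ΔIEC array 3 of 11 were higher and 2 lower, and on the Mel18ΔIEC array 3 of 10 were higher and 1 lower. The peptidase gene Enpep, the peptidase gene Naaladl1 and the fatty acid binding protein gene Fabp2 were the 3 higher ones on each single-knockout array. Enpep made up 1995 units of the summed level on the DKO array and 29.9 on the WT array, and Naaladl1 1774 and 62.2. Lyz1 made up 2655 and 1608 units on these arrays and Slc5a1 1528 and 1435, both within 2-fold. Fabp2 read 621 on the DKO array, 569 on the Bmi1ΔIEC array and 623 on the Mel18ΔIEC array, against 248 on the WT array. The lactase gene Lct, a defining small-intestinal enzyme, lay under the floor on every array. The distance of these markers to Cps1 ranged from 0.64 to 3.26 and to Otc from 1.06 to 2.65. Their median distance was 1.46 to Cps1 and 1.79 to Otc, against 1.47 and 1.91 for the general epithelial markers. The part of small-intestinal cells or identity in the Cps1 and Otc values was not tested.

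**Figure D4:**
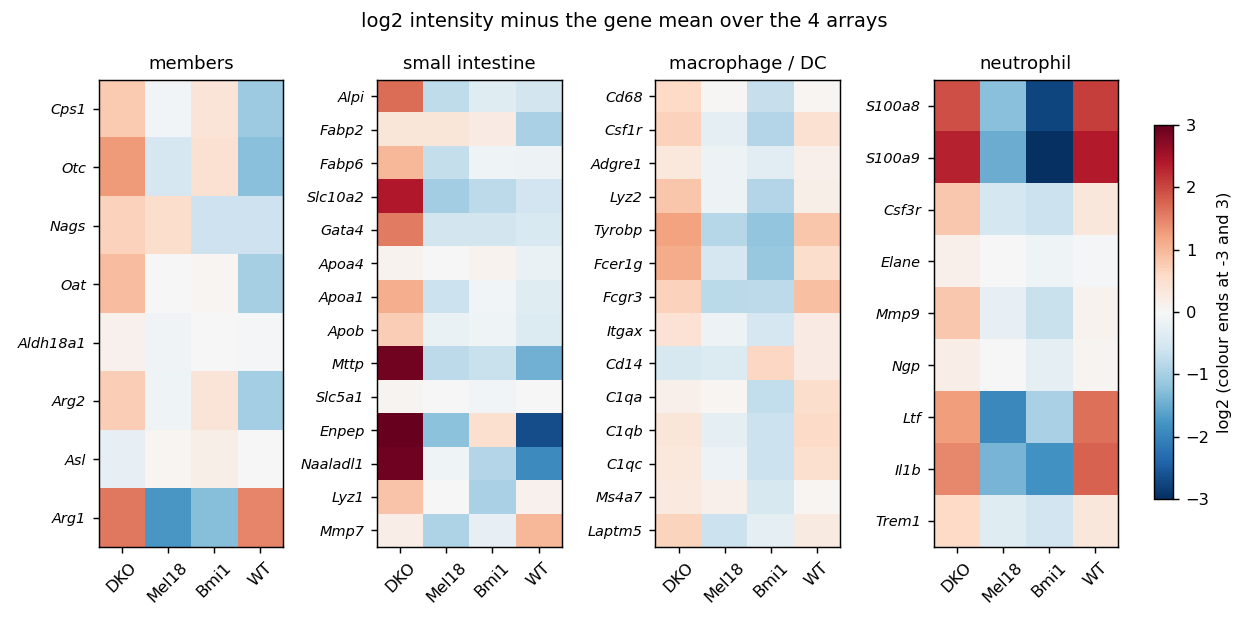
Log2 intensity minus the gene's mean over the 4 arrays, for the 8 members and for the small intestine, macrophage and dendritic cell (DC), and neutrophil markers that reached the floor on at least 1 array. Columns are the DKO, Mel18ΔIEC, Bmi1ΔIEC and WT arrays, and the colour ends at -3 and 3. Arg1, S100a8, S100a9, Ltf and Il1b are red on the DKO and WT arrays, whereas Cps1, Otc, Oat and Arg2 are red on the DKO array and blue on the WT array.

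General epithelial markers differed little beside the members. Their summed level was 72576 units on the DKO array, 58929 on the Bmi1ΔIEC array and 61641 on the Mel18ΔIEC array, against 70449 on the WT array, and 1 of 8, the surface keratin gene Krt20, was lower than WT, on the Bmi1ΔIEC array at -1.29. Of 10 hepatocyte markers 9 were measured, and those other than Ttr, Tat, Apoh and Serpina1b lay under the floor on every array. Their summed level was 1754 units on the DKO array, 5090.5 on the Bmi1ΔIEC array and 3887 on the Mel18ΔIEC array, against 1234 on the WT array. Most of it was Ttr, a thyroid hormone carrier also made by endocrine cells, at 1456 units on the DKO array, 4883 on the Bmi1ΔIEC array and 3595 on the Mel18ΔIEC array, against 954 on the WT array. Of 7 fibroblast markers 0 were past the 2-fold rule on the DKO and Mel18ΔIEC arrays and 4 were lower than WT on the Bmi1ΔIEC array. Of 7 lymphocyte markers measured, Cd3g and Jchain were higher than WT on the DKO array, and 0 passed on the single-knockout arrays.

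Most genes of the neighbouring steps that supply and use arginine and ornithine lay within 2-fold of WT. Among 12 polyamine genes, which draw on ornithine, 9 were measured and 8 reached the floor, with median differences from WT of -0.02 for DKO, -0.16 for Bmi1ΔIEC and -0.06 for Mel18ΔIEC. Of these 0 were higher and 1 lower than WT on each knockout array, namely the spermidine synthase gene Srm on the DKO array at -1.07 and the spermine oxidase gene Smox on the Bmi1ΔIEC array at -1.24 and on the Mel18ΔIEC array at -1.02. Ornithine decarboxylase Odc1 read 616 on the DKO array, 943 on the Bmi1ΔIEC array and 791 on the Mel18ΔIEC array, against 882 on the WT array.

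Among 15 genes of glutamine, glutamate and proline metabolism, 10 were measured and 9 reached the floor, with medians of 0.15 for DKO, 0.24 for Bmi1ΔIEC and 0.07 for Mel18ΔIEC. Gpt2, the mitochondrial alanine aminotransferase, was the single one past the 2-fold rule against WT, higher on the Bmi1ΔIEC array at 2.29 and on the Mel18ΔIEC array at 2.36, and it read 0.63 on the DKO array. Glutamine synthetase Glul read 1099 on the DKO array, 3156 on the Bmi1ΔIEC array and 2942 on the Mel18ΔIEC array, against 1684 on the WT array. Both were high on the single-knockout arrays and lower on the DKO array, unlike Cps1 and Otc.

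Among 16 genes of arginine transport and use, 14 reached the floor, with medians of 0.06 for DKO, -0.06 for Bmi1ΔIEC and -0.03 for Mel18ΔIEC. Slc7a9, the exchanger that takes up cystine and dibasic amino acids such as arginine at the brush border, read 1206 on the DKO array, 208 on the Bmi1ΔIEC array and 237 on the Mel18ΔIEC array, against 99.3 on the WT array. It was higher than WT on every knockout array, at 3.60, 1.07 and 1.25. Slc25a15, the mitochondrial carrier that exchanges ornithine for citrulline, read 501 on the DKO array, 519 on the Bmi1ΔIEC array and 428 on the Mel18ΔIEC array, against 285 on the WT array, which is short of 2-fold each time. Gatm, which starts creatine synthesis from arginine, read 17.4 on the DKO array, 192 on the Bmi1ΔIEC array and 72.0 on the Mel18ΔIEC array, against 68.2 on the WT array. Its DKO value lay under the floor, like that of the probe set shared by Ass1 and Gm5424. Ddah1, which degrades methylated arginines, was lower than WT on the Bmi1ΔIEC array at -1.14 and on the Mel18ΔIEC array at -1.39, and read -0.89 on the DKO array. The inducible nitric oxide synthase Nos2, which competes with arginases for arginine, read 35.8 on the DKO array and 24.3 on each single-knockout array, against 44.8 on the WT array, close to the floor.

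Among the mitochondrial partners of Cps1, the carbonic anhydrases Car5a and Car5b, which supply its bicarbonate, lay under the floor on every array. Sirt5, a deacylase that acts on Cps1, was higher than WT on the Bmi1ΔIEC array at 1.58 and on the Mel18ΔIEC array at 1.09, and read 0.40 on the DKO array. Of liver factors known for urea cycle genes, 8 of 9 were measured and reached the floor, with medians of 0.09 for DKO, 0.38 for Bmi1ΔIEC and 0.45 for Mel18ΔIEC, and Foxa2 at 1.04 on the Bmi1ΔIEC array was the single one past the 2-fold rule against WT. Hnf4a, the nuclear receptor that drives these genes in liver, read 4827 on the DKO array, 5012 on the Bmi1ΔIEC array and 5325 on the Mel18ΔIEC array, against 4872 on the WT array. Hnf4a thus differed from WT by at most 0.13, on the Mel18ΔIEC array.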

How the data were processed

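Total RNA (200 ng per array, Trizol) was hybridised to Affymetrix mouse expression arrays. The deposited values are intensity units per probe set on a linear scale, for which the submitters' processing notes name Affymetrix Expression Console and RMA. No version is given in the sources used here, nor whether the 4 arrays were summarised together. The design had assumed log2 values, so log2 was taken here, with no pseudocount or further scaling (Python 3.11.15, pandas 2.3.3).

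Of 45037 probe sets, 34945 had 1 symbol in the platform annotation, 932 several and 9160 were not listed and are unnamed here. Gene identifiers of 34741 matched GRCm38.p6, from which symbols were updated. A gene took its probe set with the highest mean log2 value. Probe sets with several symbols were named for no gene. Array medians ran from 32.1 to 34.2 intensity units. Precision is limited by the number of arrays.

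Groups follow the genotype labels, with 1 array each, so no test was run. The members and the 13 other gene lists were chosen with earlier results of these data known. Named genes were all probe sets of the members, list genes past 2-fold or showing a list's range, and the 5 genes nearest in pattern to each member that spanned at least 2-fold, systematic clone names left out. Xist, Eif2s3y, Bmi1 and Pcgf2 were named after their values were seen. Alternatives were other floors, centring, quantile normalization, a 1.5-fold rule and other choices of probe set. The calling step was run on simulated data with little noise and shifts past 2-fold in genes well above the floor. That checks the code alone and does not measure how reliable the calls are.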

Additional observations from a re-analysis of the deposited data

Results flagged for a closer look

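Arg1 was picked out because the loss of either gene went one way on the wild-type background and the other way where the second gene was already lost. For Bmi1 loss the log2 difference was -2.73 between Bmi1ΔIEC and WT and 3.32 between DKO and Mel18ΔIEC. For Mel18 loss it was -3.21 between Mel18ΔIEC and WT and 2.85 between DKO and Bmi1ΔIEC. With 1 array per genotype this difference was not tested, and both single-knockout values lay under the floor.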

How the results depend on the processing

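No paired analysis was possible because each genotype has 1 array, and for the same reason no replicate could be left out. No member past the 2-fold rule changed its direction under any of the 9 alternatives. With the floor at percentile 75 (136 units), 3 members were higher on the DKO array than WT, 0 were lower on the Bmi1ΔIEC or the Mel18ΔIEC array, and 0 and 1 were higher on the DKO array than on the Bmi1ΔIEC and Mel18ΔIEC arrays, since fewer members reach that floor. Of all genes, 176 of 7159 were then higher on the DKO array than WT. Those lower than WT were 231 of 7628 (Bmi1ΔIEC) and 195 of 7407 (Mel18ΔIEC). Those higher on the DKO array were 352 of 7681 against Bmi1ΔIEC and 305 of 7447 against Mel18ΔIEC. With arrays centred on the median of their expressed genes, 0 members were higher on the Mel18ΔIEC array than WT, and the DKO array had 4 higher against Bmi1ΔIEC and 5 against Mel18ΔIEC. For all genes these counts were 234 of 11979, 825 of 12024 and 614 of 11986. Quantile normalization left 1 member higher on the Mel18ΔIEC array than WT (Nags), where 345 of 11826 genes were. Oat was no longer higher on the Bmi1ΔIEC array under either of these settings, at 0.83 and 0.95. The 1.5-fold rule gave 5 members higher on the Mel18ΔIEC array than WT, and 4 and 5 higher on the DKO array than on Bmi1ΔIEC and Mel18ΔIEC. It also widened the counts of all genes, to 1402 of 11862, 1187 of 11966 and 1024 of 11879. Under the 2-fold rule these were 374, 515 and 456. With probe set types that match several transcripts left out, 1 member was higher on the DKO array than Mel18ΔIEC. Of all genes, 439 of 11442 were. The Otc calls against WT ended (0.16 for DKO and 0.11 for Bmi1ΔIEC). Otc is then read by a probe set under the floor on every array. Counting the probe set shared with Gm5424 as Ass1, an alternative chosen after seeing the data, gave 1 member lower on the DKO array against each of WT, Bmi1ΔIEC and Mel18ΔIEC. For all genes these counts were 260 of 11854, 954 of 11967 and 539 of 11880. In all, 16 of 90 member counts and 117 of 1170 counts of the other lists moved by more than 1.5 times or from or to 0, and where no construction is named above the cause was not tested. Of all genes past 2-fold, those higher made up 66.8% for Bmi1ΔIEC and 55.8% for Mel18ΔIEC against WT as deposited, 76.1% and 63.2% with arrays centred on their medians, and 38.2% and 36.6% with arrays centred on the median of their expressed genes. For DKO against Bmi1ΔIEC and Mel18ΔIEC these shares were 35.1% and 45.9% as deposited and 61.4% and 62.8% under the last centring. Values under the floor of 33.4 have no order that can be relied on.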
